A study of Mus musculus with 12 samples.

Results

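Gene expression in 3 libraries of mouse cortical cells labelled as stroke with GDF10 siRNA was set against 3 libraries labelled P4, for every gene of the deposited table. These are 6 of the 12 libraries of the series. The other 6, stroke and adult control, entered the same statistical fit and are used where a value against P4 has to be placed beside them. GDF10 is a secreted ligand of the transforming growth factor beta (TGF-beta) family, and the title of the series names axonal sprouting and recovery after stroke as its subject. The siRNA-labelled group was adult C57BL/6 mice given a photothrombotic stroke: rose bengal, a dye that closes vessels when lit, was given and the cortex was lit for 15 min to make a lesion 2 mm wide. The labels add GDF10 siRNA to this group, with no word on how it was delivered, and stroke has the same lesion without it. The table's headers for the same libraries name GDF10 beside the stroke and do not say siRNA, so which agent these animals received cannot be told from the sources used here, and the group is called siRNA-labelled below. P4 is called an animal control, and the labels do not expand that name. Adult control is called an adult animal control, and the labels give a stroke to neither. One growth protocol, for adult animals, is attached to all 12 samples, P4 included, so the age of the P4 animals is not given beyond that name. The header of the first P4 library in the table reads P3. All samples are labelled as cortical neurons sorted by flow cytometry. The labels do not give the marker of the sort, the time after stroke or whether the libraries of a group came from separate animals, so p-values measure the spread between these libraries.

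As background, cortical neurons of a young brain are still growing axons and use a set of cytoskeletal and adhesion proteins, such as doublecortin, GAP-43 and the stathmins, that mature neurons make in small amounts. Oligodendrocytes, which wrap axons in myelin, form late, from precursor cells. Microglia are the resident macrophages of the brain. They prune synapses in development and take up debris after injury, when cells of the cortex also switch on interferon-stimulated genes, complement and antigen presentation. Myelin debris and chondroitin sulfate proteoglycans are known to hinder axon regrowth in the adult brain.

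Of 23253 genes in the table, 17909 had enough reads to be tested. In siRNA-labelled stroke against P4, 3517 genes (19.6% of those tested) passed a Benjamini-Hochberg adjusted p of 0.05 in edgeR's quasi-likelihood test. Of these, 2076 (11.6%) were higher and 1441 (8.05%) lower in siRNA-labelled stroke. A gene that passed is said to be called below. The median log2 fold change, siRNA-labelled stroke minus P4, was 3.17 over the genes called higher and -2.41 over those called lower, against 0.08 over all genes tested. All 3 siRNA-labelled libraries lay on one side of all 3 P4 libraries for 7048 genes (39.4%), among them 3453 of the 3517 called. At an unadjusted p under 0.05 there were 5405 genes. The number called lower fell to 897 without siRNA-labelled library 2 and to 910 without library 1. The authors' deposited table for the same pair has 3960 genes at a false discovery rate under 0.05, 2280 higher and 1680 lower. It shares 3464 calls in the same direction with those made here and 0 in the opposite direction.

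**Figure D1:**
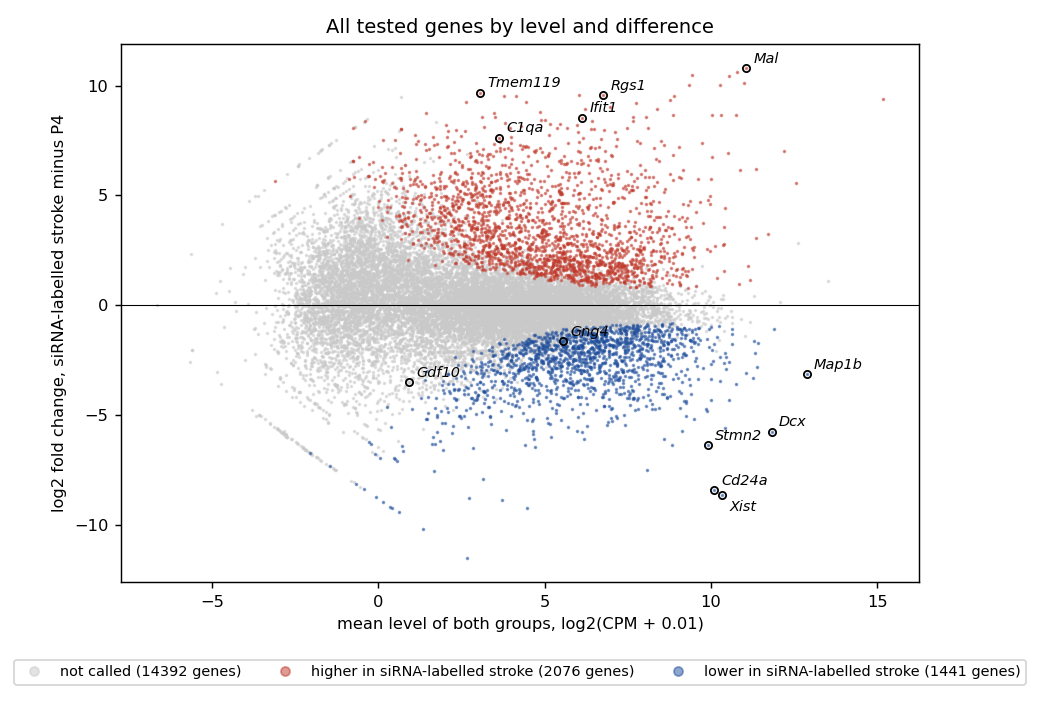
All 17909 genes tested. The horizontal axis is the mean level of both groups as log2(CPM + 0.01), where CPM is the read count scaled to library size, and the vertical axis is the log2 fold change, siRNA-labelled stroke minus P4; red and blue points are called genes and grey points are not. Named genes are ringed: Mal at the upper right, Map1b, Dcx, Cd24a and Xist at the lower right, and Gdf10, which was not called, at a low level.

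Total counts were 16887717 to 33082818 in the siRNA-labelled libraries and 17544485 to 48633350 in P4. Correlations of log2 CPM over genes were 0.873 to 0.876 within the siRNA-labelled group and 0.895 to 0.989 within P4. P4 libraries 4 and 5 were the closest pair, yet their counts differed by more than sampling noise, with a mean chi-square of 57.5 per gene where sampling alone gives about 1. Library 3 of the siRNA-labelled group correlated less with its own libraries 1 and 2 than with stroke libraries 4 and 5 and adult control library 2, at 0.943 to 0.944. Its share of counts on the ribosomal RNA precursor Rn45s was 2.72%, against 0.329% and 0.304% in libraries 1 and 2 and 0.00984% to 0.349% in P4. Library 1 of the siRNA-labelled group also correlated more with adult control library 1, at 0.885, than with its own libraries 2 and 3, at 0.876 and 0.873. The X inactivation transcript Xist was at 15.2, 2.03 and 2.25 CPM in siRNA-labelled stroke, against 3649, 2082 and 2045 CPM in P4, so the groups also differed in a transcript that female cells make. Replicate numbers ran from 1 to 3 in one group and from 4 to 6 in the other, so a batch that followed these numbers cannot be told apart from the groups. Levels below are CPM scaled with TMM factors, given as mean ± SD with n = 3, or library by library in the order of the replicate numbers.

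Gdf10 (chromosome 14, 33923587 to 33936514, mm10), the gene the siRNA is named for, was at a low level in every library, with few reads in siRNA-labelled stroke. Its level was 0.495, 0.405 and 0.0289 CPM in the siRNA-labelled libraries, from 8, 7 and 1 reads, and 3.54, 4.78 and 2.09 CPM in P4, from 189, 241 and 33 reads. All 3 siRNA-labelled libraries were below all 3 P4 libraries. The log2 fold change was -3.49, with a standard error (SE) of 1.69, which did not pass (adjusted p = 0.18). It did pass with DESeq2 and in a fit of the 6 libraries alone, with adjusted p-values from 0.0366 to 0.408 over the 12 alternatives. The authors' deposited table gives a log2 fold change of -3.52 with a false discovery rate of 0.109. Gdf10 was at 0, 0.16 and 0 CPM in stroke and 0.595, 0.522 and 0 in adult control, so the siRNA-labelled libraries were not below stroke and overlapped with adult control. The level of the target thus does not check the label.

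The clearest difference was in genes of myelin. All 20 markers of mature oligodendrocytes passed the test, and all 20 were higher in siRNA-labelled stroke, with a median log2 fold change of 8.07. Together they took 11.3, 10.6 and 7.99% of counts in siRNA-labelled stroke, against 0.0147, 0.0227 and 0.0358% in P4. The labels call these samples sorted neurons, yet pan-neuronal markers made up 0.278 ± 0.061% of counts in siRNA-labelled stroke, less than the myelin list. Adult control had the same order, with 0.499 ± 0.234% on pan-neuronal markers and 6.34 ± 2.92% on the myelin list. The lists hold different genes, so their shares do not measure numbers of cells. In bulk samples, fewer cells of a type and less RNA per cell cannot be told apart.

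Mal, a raft protein of myelin membranes, had the largest log2 fold change among the genes that the naming rule allowed. It was at 3931, 3649 and 5179 CPM in siRNA-labelled stroke and at 1.39, 1.13 and 5.01 CPM in P4, a log2 difference of 10.78 (SE 0.74, adjusted p = 1.87e-07). Cldn11, the claudin that seals the myelin sheath, was at 2639, 3361 and 2983 CPM against 1.42, 1.7 and 3.49 CPM. The siRNA-labelled libraries were close to each other here and P4 library 6 was again the highest of its group (log2 fold change 10.44, SE 0.49, adjusted p = 2.02e-08). Prostaglandin D synthase Ptgds, which oligodendrocytes and meninges make, was at 1249.9, 984 and 1685 CPM against 0.487, 0.377 and 3.3 CPM. Mobp, a structural myelin protein, was at 1383 ± 115 against 1.05 ± 0.854 CPM, and the cytoskeletal protein Ermn at 4101 ± 1058 against 3.71 ± 1.7 CPM. The lipid carrier Apod (3554 ± 1551 against 2.31 ± 1.35 CPM) and the membrane protein Opalin (131 ± 57.5 against 0.211 ± 0.209 CPM) were also among the 10 largest rises. Carbonic anhydrase Car2, which oligodendrocytes and red cells both make, was at 3469 ± 101 against 8.6 ± 3.15 CPM. Of the red cell genes, the globins had 15 reads or fewer in each library, while the anion exchanger Slc4a1 had 301 reads in siRNA-labelled library 2 and 1 to 4 in the other 5 libraries.

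Some further called genes, named for their high level or for their small p-value within a list in these same data, are described here singly. Some of them are in no list. The RNA-binding protein Qk, which controls splicing of myelin transcripts, was at 11710.1 ± 5588 against 245 ± 127 CPM (adjusted p = 2.82e-05). The tetraspanin Tspan2 was at 9251 ± 3305 against 70.8 ± 52.3 CPM and the lysophospholipase Enpp2 at 5186 ± 738 against 70.5 ± 48.8 CPM. Fatty acid 2-hydroxylase Fa2h, which makes the hydroxylated lipids of myelin, was at 758 ± 169 against 4.93 ± 2.35 CPM (adjusted p = 2.19e-07). Among tubulins, Tubb4a, the isotype of oligodendrocytes and mature axons, was the one called higher, at 6637, 4682 and 6941 CPM against 577, 632 and 727 CPM. Septin-binding anillin (Anln), listed both as a myelin and as a mitosis gene, was at 915 ± 39.3 against 8.08 ± 2.83 CPM. The potassium channels Kcna1 (log2 fold change 5.73) and Kcnj10 (5.83) and the chloride importer Slc12a2 (4.41, adjusted p = 7.88e-07) were higher as well, with no overlap between the groups.

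Earlier stages of the lineage differed less. Of 14 markers of newly formed oligodendrocytes, 10 were called higher and 0 lower, with a median of 2.99. Examples are the ligand Bmp4 (102 ± 7.73 against 5.43 ± 2.96 CPM), the Wnt effector Tcf7l2 (122 ± 15.7 against 9.7 ± 2.85 CPM) and Bcas1 (421 ± 129 against 37.6 ± 13.8 CPM). Of 12 markers of oligodendrocyte precursors, 8 were called higher and 0 lower, with a median of 3.19. The lineage factors Olig1 (5.39), Sox10 (5.24) and Olig2 (4.46) led these by their p-value. The precursor receptor Pdgfra had a smaller log2 fold change, 2.10 (SE 0.40, adjusted p = 0.0016), and the proteoglycans Vcan (-0.31) and Ptprz1 (0.65) did not pass.

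The stretch just before the start site is shown for 3 myelin genes, because SOX10 is a master regulator of oligodendrocytes and these are the myelin genes among the 10 largest rises with a match to the core SOX motif there. Sequences are RefSeq promoter windows on GRCm38.p6, cut to the 150 bases before the start site, 5′ to 3′ on the strand of the gene, with matches to ACAAAG or to its reverse complement in capitals. Mobp is chr9:120149592-120149741 on the plus strand, Apod is chr16:31314809-31314958 and Opalin is chr19:41077114-41077263, both on the minus strand.
Mobp: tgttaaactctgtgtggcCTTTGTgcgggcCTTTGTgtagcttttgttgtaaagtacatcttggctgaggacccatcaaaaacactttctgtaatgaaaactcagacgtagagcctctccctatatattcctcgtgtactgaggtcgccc
Apod: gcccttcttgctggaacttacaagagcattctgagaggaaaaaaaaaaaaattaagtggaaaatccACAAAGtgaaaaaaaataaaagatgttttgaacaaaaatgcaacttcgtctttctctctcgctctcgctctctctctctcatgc
Opalin: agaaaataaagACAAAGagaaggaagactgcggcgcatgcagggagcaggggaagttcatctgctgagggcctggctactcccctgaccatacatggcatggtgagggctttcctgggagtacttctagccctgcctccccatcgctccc
Mobp has 2 matches, which begin 132 and 120 bases before the start site, Apod has 1 at 84 bases and Opalin has 1 at 139 bases. Searched on both strands over the 250 bases before the start, ACAAAG was found in 7 of the 17 myelin genes with a window (41.2%), and in 5015 of 27025 genes with a window (18.6%). The motif of the myelin factor MYRF, written as CTGGCAC or CTGGTAC, was found in 4 of the 17 (23.5%) and in 6.79% of all genes. A match is a description of the letters and not evidence of binding.

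Microglial genes showed the next largest difference. All 16 markers of microglia and macrophages were called higher in siRNA-labelled stroke, with a median log2 fold change of 7.04. Their share of counts was 0.22, 0.422 and 0.237% against 0.00287, 0.00465 and 0.00433% in P4. The fractalkine receptor Cx3cr1 was at 132, 232 and 80.3 CPM against 0.243, 0.178 and 0.57 CPM (log2 fold change 8.94, SE 0.69, adjusted p = 5.28e-07). Tmem119, a marker of resident microglia, was at 5.38, 11.4 and 33.3 CPM against 0.0374, 0 and 0 CPM, with reads in 1 of 3 P4 libraries. Library 2 was the highest of the siRNA-labelled libraries for Cx3cr1 and library 3 for Tmem119. The lysosomal protease Ctss was at 940.2 ± 534 against 1.27 ± 0.898 CPM, and the integrin Itgam at 206 ± 108 against 1.1 ± 0.472 CPM. The lipid receptor Trem2, needed for the response of microglia to myelin debris, was at 22.9 ± 14.2 against 0.0679 ± 0.0509 CPM (adjusted p = 0.000865). Rgs1, a regulator of chemokine receptors, was among the 10 largest rises, at 80.6, 460.4 and 109 CPM against 0.15, 0.0396 and 0.887 CPM, with library 2 far above libraries 1 and 3. Markers of blood-borne cells gave no call. Of 14 genes of monocytes, neutrophils and lymphocytes, 7 were tested and 0 passed in edgeR's test or with DESeq2, with 1 at an unadjusted p under 0.05. Their summed share was 0.00123 ± 0.00109% against 0.000268 ± 0.000331%. The 7 tested had a median log2 fold change of 3.52, with 6 above 0 and 1 below. The lack of calls is thus not evidence of equal levels.

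Genes that phagocytes switch on when they take up lipid and debris were higher too. Of 22 in this list, 19 were called higher and 1 lower, with a median of 4.69. The tetraspanins Cd63 (101 ± 31.1 against 4.04 ± 0.262 CPM) and Cd9 (361 ± 56.7 against 10.4 ± 6.8 CPM) and the cholesterol exporter Abca1 (586 ± 296 against 22.1 ± 8.07 CPM) had the smallest p-values. Apolipoprotein E (Apoe) was at 685 ± 390.4 against 7.07 ± 5.67 CPM (log2 fold change 6.59, adjusted p = 7.57e-05). Osteopontin, the product of Spp1, was at 77.4, 420.1 and 43.6 CPM in siRNA-labelled stroke and at 0.749, 0.595 and 0.697 CPM in P4. Library 2 had most of it, and each of libraries 1 and 3 was still above all P4 libraries (log2 fold change 8.04, SE 0.95, adjusted p = 2.56e-05). Lipoprotein lipase Lpl was the member called lower, at 75.1, 198 and 14.9 CPM against 272, 241 and 1225 CPM. That call did not pass without P4 library 6 (adjusted p = 0.234) or siRNA-labelled library 1 (0.132) or 3 (0.0861), nor in a fit of both groups alone.

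Of 23 tested genes of cytokines, chemokines and their NF-kappaB feedback, 18 were called higher and 0 lower, with a median of 5.06. The alarmin Il33, which oligodendrocytes and astrocytes store in their nuclei, was at 2717, 2696 and 2068 CPM against 0.898, 1.11 and 5.45 CPM (log2 fold change 10.04, SE 0.75, adjusted p = 4.13e-07). The spread within siRNA-labelled stroke was small, and P4 library 6 was again the highest of its group. The microglial growth factor Csf1 was at 166 ± 31 against 3.25 ± 1.02 CPM. Il1a, a cytokine of activated microglia, was at 105 ± 82.3 against 0.647 ± 0.298 CPM. The chemokines Ccl3 (130.1 ± 81.4 against 0.777 ± 0.448 CPM) and Cxcl10 (39.7 ± 13.8 against 0.741 ± 0.677 CPM) and the feedback inhibitors Tnfaip3 (5.06) and Nfkbiz (4.90) were called higher as well. Tnf, whose log2 fold change was 4.07, did not pass (SE 1.57, adjusted p = 0.088).

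Complement and class I antigen presentation had 17 of 26 members called higher and 0 lower, with a median of 4.86. Complement C4b was at 214, 286 and 798 CPM against 0.374, 0.456 and 1.58 CPM, with library 3 the highest (log2 fold change 9.20, SE 0.77, adjusted p = 1.14e-06). The class I heavy chain H2-K1 was at 192, 293 and 279.6 CPM against 1.93, 3.03 and 1.71 CPM, and its partner beta-2 microglobulin B2m at 3339, 5841 and 1935 CPM against 17, 22.6 and 115 CPM. The groups were apart for each of these genes, by a log2 fold change of 6.83 for H2-K1 and 6.17 for B2m. Reads of C4b and of the H2 genes may be shared with close copies, since how the authors treated reads with several matches is not stated. The C1q subunits C1qa (7.63), C1qb (6.56) and C1qc (6.96) and the receptor C3ar1 (5.48) were called higher, while the regulators Cd55 (-1.65) and Serping1 (0.43) did not pass.

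Interferon-stimulated genes gave 22 calls of 28 in the higher direction and 0 in the lower, with a median log2 fold change of 4.49. The RNA-binding effector Ifit1 was at 139, 198 and 82.9 CPM in siRNA-labelled stroke and 0.225, 0.396 and 0.57 CPM in P4 (log2 fold change 8.53, SE 0.75, adjusted p = 1.91e-06). Every siRNA-labelled library was above 80 CPM and every P4 library was below 1 CPM. The 2′-5′ oligoadenylate synthetase-like gene Oasl2 was at 111, 107 and 79.3 CPM against 0.599, 1.39 and 1.46 CPM. The antiviral enzyme Rsad2 (8.17), the deubiquitinase Usp18 (6.53) and the GTPases Mx1 (6.61) and Mx2 (5.91) passed too. Isg15 (2.54, adjusted p = 0.173) and Stat2 (0.80) did not. Leaving out 1 library at a time left 18 to 20 of the 22 calls.

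Promoters of 3 interferon-stimulated genes are shown because they hold the interferon-stimulated response element that interferon signalling is known to act through. They were chosen after their values were seen, as the 3 with the smallest p among genes of the list with a match in these 150 bases. Matches to GAAANNGAAA or its reverse complement are in capitals. Ifit1 is chr19:34640739-34640888 on the plus strand, Rsad2 is chr12:26456453-26456602 on the minus strand and Ifit3 is chr19:34583379-34583528 on the plus strand of GRCm38.p6.
Ifit1: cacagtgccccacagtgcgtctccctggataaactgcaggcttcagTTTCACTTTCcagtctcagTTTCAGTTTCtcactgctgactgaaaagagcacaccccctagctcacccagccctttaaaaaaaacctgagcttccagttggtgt
Rsad2: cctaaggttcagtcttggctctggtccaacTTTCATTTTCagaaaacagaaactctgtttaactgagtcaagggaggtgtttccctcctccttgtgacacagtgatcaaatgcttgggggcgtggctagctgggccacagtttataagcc
Ifit3: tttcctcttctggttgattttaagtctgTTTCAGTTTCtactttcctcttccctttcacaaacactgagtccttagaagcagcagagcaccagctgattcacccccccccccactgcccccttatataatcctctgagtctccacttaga
Ifit1 has 2 matches, beginning 104 and 85 bases before the start site, Rsad2 has 1 at 120 bases and Ifit3 has 1 at 122 bases. Over the 250 bases before the start, GAAANNGAAA was found in 7 of the 19 interferon genes with a window (36.8%), against 936 of 27025 genes (3.46%). It was found in 1 of 17 myelin genes and in 0 of 16 growth cone genes. Ifit3 was at 33.5 ± 11.6 against 0.74 ± 0.897 CPM (log2 fold change 5.66, adjusted p = 0.0001).

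**Figure D2:**
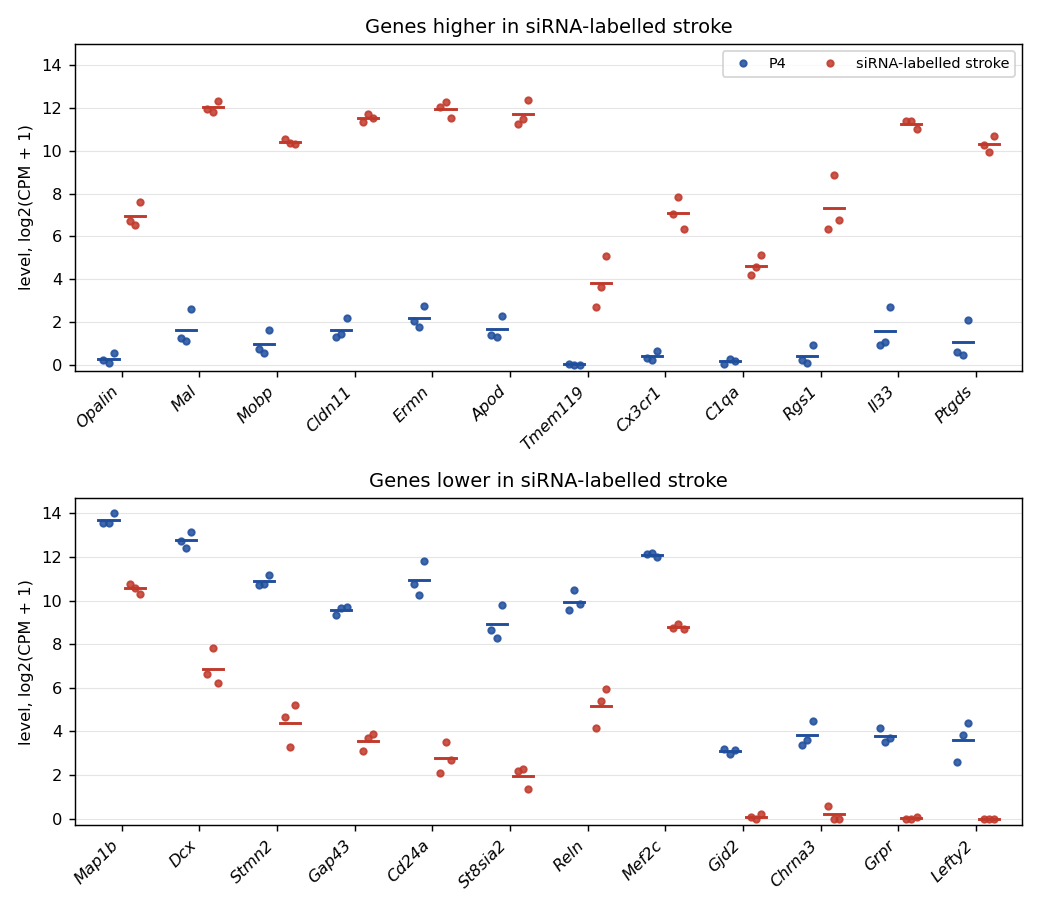
Level of 24 genes in each library of both groups, as log2(CPM + 1); points are libraries and bars are means of 3. In the upper panel every siRNA-labelled library is above every P4 library, and in the lower panel every siRNA-labelled library is below every P4 library.

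Astrocyte genes moved less as a group. Of 14 markers, 6 were called higher and 0 lower, with a median log2 fold change of 1.28. Glutamine synthetase Glul, made by astrocytes and by oligodendrocytes, was at 1984, 1958 and 1925 CPM against 44.5, 47.7 and 93.9 CPM. The calcium-binding protein S100b was at 123 ± 72.3 against 2.75 ± 1.17 CPM and the filament gene Gfap at 14.3 ± 3.43 against 1.28 ± 0.422 CPM (adjusted p = 0.00227). Markers more specific to astrocytes, the water channel Aqp4 (-0.06), the enzyme Aldh1l1 (-0.51), the receptor Fgfr3 (-0.08) and the transporter Slc1a3 (0.26), did not pass. Of 14 tested genes of reactive astrocytes, 5 were called higher and 0 lower. The serine protease inhibitor Serpina3n led them, at 364, 479 and 741 CPM against 1.2, 1.05 and 1.96 CPM, with library 3 the highest (log2 fold change 8.59, SE 0.70, adjusted p = 9.23e-07). The copper oxidase Cp was at 47.1 ± 26.2 against 5.81 ± 3.86 CPM.

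Vascular and other cell types gave few calls. Among 13 tested endothelial markers the glucose transporter Slc2a1 was the 1 called (89 ± 22.3 against 3.44 ± 1.49 CPM, adjusted p = 7.39e-06). The claudin Cldn5 had too few reads to be tested and was at 0 in all siRNA-labelled libraries. Of 14 genes of mural cells and fibroblasts, 0 passed in edgeR's test, with 3 at an unadjusted p under 0.05. With DESeq2 1 was higher and 1 lower, and in the fit of 6 libraries 2 were lower. Of 15 radial glia and progenitor markers 4 were called higher and 1 lower, 33.3% beside 19.6% of all genes tested. Those higher were led by the membrane protein Prom1 (22.4 ± 6.16 against 3.67 ± 0.829 CPM) and the antiproliferative gene Btg2 (63.2 ± 7.74 against 6.55 ± 1.67 CPM). Of these 4 calls, 2 were left when P4 library 4, P4 library 5 or siRNA-labelled library 2 was left out. The 1 called lower was the radial glial lipid carrier Fabp7, a call lost without P4 library 6 (adjusted p = 0.0936) or siRNA-labelled library 1 (0.0774). The factor Eomes, which marks intermediate progenitors, had no reads in siRNA-labelled stroke and 0.28 ± 0.217 CPM in P4, and did not pass.

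Immediate early and heat shock genes, which respond both to injury and to the dissociation of tissue, were higher in 13 of 20 cases and lower in 0, with a median of 2.38. The mRNA decay factor Zfp36 was at 460.5, 636 and 303 CPM against 2.41, 3.19 and 2.85 CPM (log2 fold change 7.37, SE 0.46, adjusted p = 1.07e-07). All siRNA-labelled libraries exceeded all P4 libraries by a wide margin. Egr1, a factor of neuronal activity, was at 843, 903 and 570.3 CPM against 60.5, 58.3 and 79.4 CPM. The stress factor Atf3 (117 ± 29.7 against 1.78 ± 1.19 CPM) and the chaperone Hspa1a (73 ± 12.1 against 1.66 ± 0.846 CPM) passed too. The constitutive chaperones Hspa8 (-0.25), Hspd1 (-0.43) and Hsp90aa1 (-0.82) did not. Whether these genes differed in the tissue or through its handling was not tested. Among 26 tested injury transcription factors and regeneration-associated genes, 13 were called higher and 3 lower, with 1 lower without siRNA-labelled library 2. Junb (3.51), Stat3 (3.19), Cebpd (5.82) and Klf4 (2.72) were among those higher. Sox11, a factor of growing neurons that also marks regeneration, was lower, at 45.7, 50.1 and 32.3 CPM against 986, 679 and 680.0 CPM.

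Genes of neurons that extend axons were lower in siRNA-labelled stroke. Of 28 in the list of growth cones and immature neurons, 22 were called lower and 1 higher, with a median log2 fold change of -3.34. The 1 higher was the stathmin Stmn4, a call lost when any library but P4 library 5 was left out (adjusted p up to 0.0938), with total-count scaling (0.101) or in a fit of both groups alone. Their share of counts was 0.453, 0.429 and 0.608% against 3.22, 3.09 and 3.04% in P4. Leaving out 1 library at a time left 17 to 22 calls in the lower direction. The larger share of oligodendrocyte and microglial transcripts in siRNA-labelled stroke moves with these values, and its part in them was not tested.

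Doublecortin Dcx, the microtubule protein of migrating and young neurons, was at 97.2, 225 and 73.8 CPM in siRNA-labelled stroke and 6875, 5453 and 9031 CPM in P4. The highest siRNA-labelled value, in library 2, was far below the lowest P4 value, in library 5 (log2 fold change -5.75, SE 0.73, adjusted p = 4.58e-05). The growth cone phosphoprotein Gap43 was at 7.74, 11.8 and 14 CPM against 644, 812 and 833 CPM (log2 fold change -6.09, SE 0.50, adjusted p = 9.23e-07). The microtubule destabiliser Stmn2 was at 24.7, 8.8 and 35.7 CPM against 1679, 1726 and 2309 CPM, and library 2 had the least of it. The collapsin response mediator Dpysl3, which relays semaphorin signals, was at 55.4, 58.9 and 55.1 CPM against 3186, 3087 and 1774 CPM, with little spread in the siRNA-labelled group. The sialylated surface protein Cd24a (chromosome 10, 43579169 to 43584265) was at 3.28, 10.5 and 5.43 CPM against 1715, 1234 and 3631 CPM, one of the 10 largest falls (log2 fold change -8.42, SE 1.20, adjusted p = 0.000131). The adhesion molecule L1cam (-4.24), Dpysl5 (-6.36) and Crmp1 (-5.72) fell with them. St8sia2, which adds polysialic acid to the adhesion molecule NCAM in young neurons, was at 3 ± 1.28 against 540.3 ± 316 CPM.

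The promoter of Dcx is shown because, of the genes of this list with the core SOX motif in these 150 bases, it has the match nearest to its start, a choice made after values were seen. It is chrX:143933125-143933274 on the minus strand of GRCm38.p6, with ACAAAG in capitals.
Dcx: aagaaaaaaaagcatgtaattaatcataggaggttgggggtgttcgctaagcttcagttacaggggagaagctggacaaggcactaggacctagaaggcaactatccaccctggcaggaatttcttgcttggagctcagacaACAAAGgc
The match begins 8 bases before the start site. ACAAAG was found in 5 of the 16 growth cone genes with a window (31.2%), against the 18.6% of all genes given above, and neither form of the MYRF motif was found in any of the 16.

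Parts of the axonal cytoskeleton differed in both directions. Of 13 tubulins 5 were called lower and 1, Tubb4a, higher. Tubb2a was at 22.6 ± 14.8 against 339.9 ± 48.6 CPM and Tubb2b at 15.6 ± 7.48 against 157 ± 47.5 CPM, and reads of this near-identical pair may be split between them. Without siRNA-labelled library 2, 3 tubulins were called lower. Map1b, the microtubule-associated protein of growing axons, was at 1756, 1544 and 1273 CPM against 12021, 12187 and 16421 CPM (log2 fold change -3.15, SE 0.39, adjusted p = 4.24e-05). The dendritic Map2 was at 204 ± 29.4 against 979.9 ± 108 CPM. Neurofilaments Nefl (-1.20), Nefm (-2.02) and Nefh (-0.62) did not pass. The kinesin motor Kif5c fell, at 144, 101 and 173 CPM against 1335, 1495 and 1424 CPM, while its relatives Kif5a (-0.89) and Kif5b (0.11) did not pass.

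Of 32 axon guidance genes 16 were called lower and 4 higher, with a median of -1.66. The Slit receptor Robo2 was at 30.4, 23.7 and 23.2 CPM against 635, 732 and 631 CPM, and the ephrin Efnb2 at 9.69 ± 1.3 against 251 ± 19.5 CPM. Neither gene overlapped between the groups, and both had a log2 fold change of -4.69. Semaphorin receptors Plxna1 (-3.04), Plxna2 (-2.94) and Plxna4 (-3.83) and the ephrin receptors Epha3 (-4.92), Epha4 (-2.23) and Epha5 (-3.22) fell as well. The 4 genes called higher were the plexin Plxnb3 (4.88), the semaphorins Sema6a (1.94) and Sema4d (2.76) and the ephrin Efnb3 (2.19), all of which oligodendrocytes are known to express.

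Identity genes of neurons were lower. Of 15 pan-neuronal markers 10 were called lower and 0 higher, with a median of -2.20 and a share of counts of 0.278 ± 0.061% against 0.86 ± 0.185%. Rbfox3, which encodes the nuclear marker NeuN, was at 24.6, 13 and 25.4 CPM against 172, 163 and 101 CPM. Snap25 (-0.25), Eno2 (-0.12) and Thy1 (0.28), also neuronal, did not pass. Of 16 genes of excitatory cortical neurons 12 were called lower and 0 higher, with a median of -3.35. The vesicular glutamate transporter Slc17a6, used by young cortical neurons, was at 4.64, 3.82 and 6.9 CPM against 180.4, 182 and 321 CPM. Slc17a7, the transporter of mature cortical neurons, was at 25.7, 15.1 and 51.4 CPM against 22.2, 76.1 and 12.3 CPM, overlapped between the groups and did not pass (log2 fold change -0.26, SE 0.58). The kinase Camk2a (0.13, SE 0.43) and its regulator Nrgn (-0.23) did not pass either. The layer 4 factor Rorb (-4.37), the deep-layer factor Bcl11b (-4.52) and the differentiation factors Neurod2 (-3.24) and Neurod6 (-3.49) fell. Mef2c, a factor of postmitotic cortical neurons, was at 427, 494 and 411 CPM against 4582, 4594 and 4128 CPM, so the libraries of each group were close to each other.

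Of 14 tested genes of inhibitory interneurons 8 were called lower and 0 higher, with a median of -3.38. Reelin (Reln), the secreted protein of Cajal-Retzius cells and some interneurons, was at 16.8, 41.6 and 61.7 CPM against 753, 1417 and 921 CPM. The GABA-synthesising enzyme Gad1 was at 8.74 ± 3.97 against 47.1 ± 6.73 CPM (log2 fold change -2.43, adjusted p = 0.00321). The interneuron factors Lhx6 (-5.87) and Dlx1 (-4.18) fell. The transcript antisense to Dlx1, Dlx1as, was at 0.0772 ± 0.134 against 17.7 ± 5.45 CPM and cannot be told apart from Dlx1 itself where strand was not used in counting.

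Synapses and excitability gave smaller differences. Of 20 genes of vesicle release 9 were called lower and 0 higher (median -1.42), among them the complexin Cplx2 (45.3 ± 14.9 against 407 ± 78.8 CPM) and the priming factor Unc13a (29.2 ± 11.8 against 181 ± 98.7 CPM). Without siRNA-labelled library 2, 6 genes of vesicle release were called lower. Of 22 glutamate receptor subunits 6 were called lower and 0 higher (27.3%, median -1.19), beside 19.6% of all genes tested, with 8.05% called lower. The NMDA receptor subunit Grin2b, which dominates in young neurons, was at 34.7, 14.6 and 56.7 CPM against 296, 465 and 94.9 CPM (log2 fold change -3.01, SE 0.59, adjusted p = 0.00171). Its adult counterpart Grin2a had a log2 fold change of -0.94 and did not pass (SE 0.77). The count of 6 glutamate receptor subunits went to 3 without P4 library 5, siRNA-labelled library 1 or siRNA-labelled library 2. Gria2, an AMPA receptor subunit, was at 496 ± 84.4 against 1683 ± 308 CPM.

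Of 16 GABA receptor subunits and chloride transporters 8 were called lower and 1 higher. Gabra3, a receptor subunit of young cortex, was at 15.5 ± 3.94 against 97.7 ± 15.7 CPM. Slc12a2, the chloride importer, was the one called higher. Its level was 2912, 3208 and 1795 CPM against 109, 112 and 150.2 CPM. Without P4 library 5 or siRNA-labelled library 2, 5 of the 8 calls were left. Of 23 sodium and potassium channels 9 were called lower and 4 higher, and 5 were lower without siRNA-labelled library 2. The sodium channel subunit Scn3b was at 18 ± 3.62 against 297 ± 68.9 CPM and the channel Scn2a1 at 112 ± 35.8 against 656 ± 168 CPM. The 4 called higher were Kcna1, Kcnj10, Kcna2 (2.52) and Hcn2 (3.94).

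Cell cycle lists did not follow either direction. Of 24 genes of S phase, 1 was called, higher, and of 24 genes of G2 and M phase the 1 called was Anln, the anillin described with myelin. For each list that is 4.17%, below the 19.6% of all genes tested. The S phase call was lost when any library but P4 library 6 was left out. The proliferation marker Mki67 had a log2 fold change of 0.15 (SE 0.82). Of 19 tested fetal RNA-binding and imprinted growth genes 5 were called lower and 0 higher, which is 26.3%. Over all genes tested 19.6% were called, with 8.05% called lower. Of the 5, 2 were left without siRNA-labelled library 2 and 3 without siRNA-labelled library 1 or 3 or P4 library 4 or 5. The imprinted transcript Meg3 was at 382, 212 and 232 CPM against 1892, 2127 and 1299.5 CPM and the imprinted growth suppressor Ndn at 16.8 ± 3.3 against 138 ± 109 CPM. Of 23 chromatin genes 4 were called lower and 0 higher, 17.4% beside the same shares over all genes. Of these 4, 1 was left when P4 library 4, P4 library 5 or siRNA-labelled library 1 was left out and 2 without siRNA-labelled library 2. The deacetylase Hdac2 had the smallest p of them, at 62.5, 83.5 and 83.8 CPM against 375, 301 and 515 CPM.

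Several of the 10 largest falls were genes with few or no reads in siRNA-labelled stroke. Lefty2, a TGF-beta family antagonist of Nodal (chromosome 1, 180893108 to 180899107), had 0 reads in all 3 siRNA-labelled libraries and was at 5, 13.3 and 20.2 CPM in P4. Against a floor of 3 reads over the siRNA-labelled group it was at least 291-fold lower (adjusted p = 0.00356). The imprinted gene Magel2 also had 0 reads there and was at 5.67, 6.58 and 2.98 CPM in P4, at least 115-fold lower. Klhl14, a kelch-like protein, was at 0.186, 0 and 0 CPM against 34.2, 17.3 and 27.6 CPM (log2 fold change -8.88, SE 1.57, adjusted p = 0.000824). The bombesin-family receptor Grpr was at 0.0193 ± 0.0333 against 13.2 ± 3.47 CPM, and the neuronal gap junction gene Gjd2 at 0.0688 ± 0.0724 against 7.67 ± 0.697 CPM. The nicotinic receptor subunit Chrna3 was at 0.165 ± 0.286 against 14.1 ± 6.54 CPM, a call that was lost when any library but siRNA-labelled library 1 was left out (adjusted p up to 0.129). The calcium sensor Calm2 (947 ± 112 against 4237 ± 1909 CPM), with a high level in both groups, fell by less. The adaptor Ywhaz (-1.07, adjusted p = 0.0363) and the Wnt regulator Apc (-1.63, adjusted p = 0.0363) were called. Ywhaz was lost without P4 library 4 or 5 or any 1 siRNA-labelled library (adjusted p up to 0.129) and also with RLE or upper quartile scaling factors. Apc was lost without P4 library 6 or any 1 siRNA-labelled library (up to 0.213) and with RLE factors.

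In the TGF-beta family, to which GDF10 belongs, members were called in both directions. Of 24 tested ligands and antagonists 4 were called higher and 3 lower, 29.2% beside 19.6% of all genes tested. Bmp4 was the one higher by the smallest p, and the latency protein Ltbp1 was at 40.2 ± 12.9 against 7.13 ± 4.24 CPM. The activin subunit Inhba was at 3.28, 2.84 and 1.01 CPM against 179, 91.2 and 103 CPM, so the groups were far apart (log2 fold change -5.72, SE 0.69, adjusted p = 2.84e-05). The ligands Tgfb2 (0.42) and Tgfb3 (1.84) did not pass. The ligand Tgfb1 was called (5.03), except without P4 library 4 (adjusted p = 0.0684). Leaving out P4 library 4 left 2 calls higher, and leaving out P4 library 4 or 5 or siRNA-labelled library 1 or 2 left 1 lower. Of 23 tested receptors and SMADs 3 were called higher and 2 lower, 21.7% and so near the 19.6% of all genes tested. Smad5, among those higher, was lost in 10 of 14 other settings (adjusted p up to 0.198). The receptor Tgfbr2, which TGF-beta ligands bind, was at 59.7, 87.4 and 51.8 CPM against 0.206, 1.66 and 0.57 CPM (log2 fold change 6.32, SE 0.97, adjusted p = 0.000253), and the inhibitory Smad7 at 87.8, 78.5 and 92.7 CPM against 8.01, 6.32 and 4.94 CPM. All siRNA-labelled libraries were above all P4 libraries for both genes. The activin and BMP receptors Acvr1 (-2.16) and Acvr2a (-1.87) were lower. The type I receptor Tgfbr1 (0.65), the effectors Smad2 (-1.19), Smad3 (0.51) and Smad4 (-0.22) did not pass. Of 18 tested response genes 4 were called higher and 2 lower, 33.3% in all, among them Tgfbi (4.32) higher and fibronectin Fn1 (-3.21) lower. Leaving out any 1 library left 1 of the 2 lower.

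Inhibitors of axon growth and their receptors were also called in both directions, with 6 of 24 called higher and 3 lower. That is 37.5%, beside 19.6% of all genes tested, with 11.6% higher and 8.05% lower. Those higher were led by the myelin proteins Mag (354 ± 304 against 1.31 ± 0.635 CPM) and Mog (458 ± 197 against 5.48 ± 1.16 CPM) and the link protein of nodes, Hapln2 (81.9 ± 7.97 against 0.313 ± 0.0607 CPM), and included Omg (3.00). The proteoglycan Ncan (-2.23) and tenascin-C, Tnc (-3.55), were lower. The number lower was 5 without siRNA-labelled library 3. Nogo itself, Rtn4, had a log2 fold change of 0.17 (SE 0.38) and its receptor Rtn4r -0.85 (SE 1.13), and neither passed. In sterol and fatty acid synthesis 5 of 26 were higher and 5 lower, 38.5% beside the same shares over all genes. The desaturases Scd1 (3.62) and Scd2 (3.08) were higher along with Fa2h, and the sterol enzymes Hmgcs1 (-2.35) and Sqle (-1.58) were lower. Of 18 genes of ion balance 6 were higher, led by the carbonic anhydrases Car2 and Car14 (7.17), and 5 lower, 61.1% in all. Without P4 library 4, 3 of each were left, and without P4 library 5 or siRNA-labelled library 1 or 2, 2 of those lower were left. Housekeeping lists stayed near the middle: 0 of 32 ribosomal protein genes and 1 of 26 nuclear genes of oxidative phosphorylation (Atp5a1, which did not pass without P4 library 4 or 5 or siRNA-labelled library 1 or 2, with adjusted p up to 0.144) passed, with medians of -0.03 and -0.10. None of the ribosomal protein genes passed in edgeR's test or with DESeq2, with 1 at an unadjusted p under 0.05, and their log2 fold changes ran from -0.62 (Rpl4) to 1.17 (Rplp1).

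The stroke and adult control libraries place these differences. All comparisons with P4 share its 3 libraries, so their values are set side by side and not tested against each other. The median of the myelin list was 8.07 in siRNA-labelled stroke, 8.37 in stroke and 7.83 in adult control, each minus P4. For the growth cone list the medians were -3.34, -2.33 and -3.42, and for excitatory neurons -3.35, -3.54 and -2.31. For microglia they were 7.04, 5.27 and 5.32, and for phagocyte activation 4.69, 3.64 and 2.28. Interferon genes had 4.49, 5.38 and 1.57, so adult control was nearer to P4 than either stroke group in this list. Cytokine, chemokine and NF-kappaB feedback genes had 5.06, 3.59 and 3.69. Complement and class I genes had 4.86, 3.83 and 2.92, and immediate early and heat shock genes 2.38, 2.44 and 1.67. In these lists adult control, which had no stroke by its labels, was well above P4 too. The myelin and growth cone differences from P4 were thus present in all 3 adult groups, the one without stroke included.

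**Figure D3:**
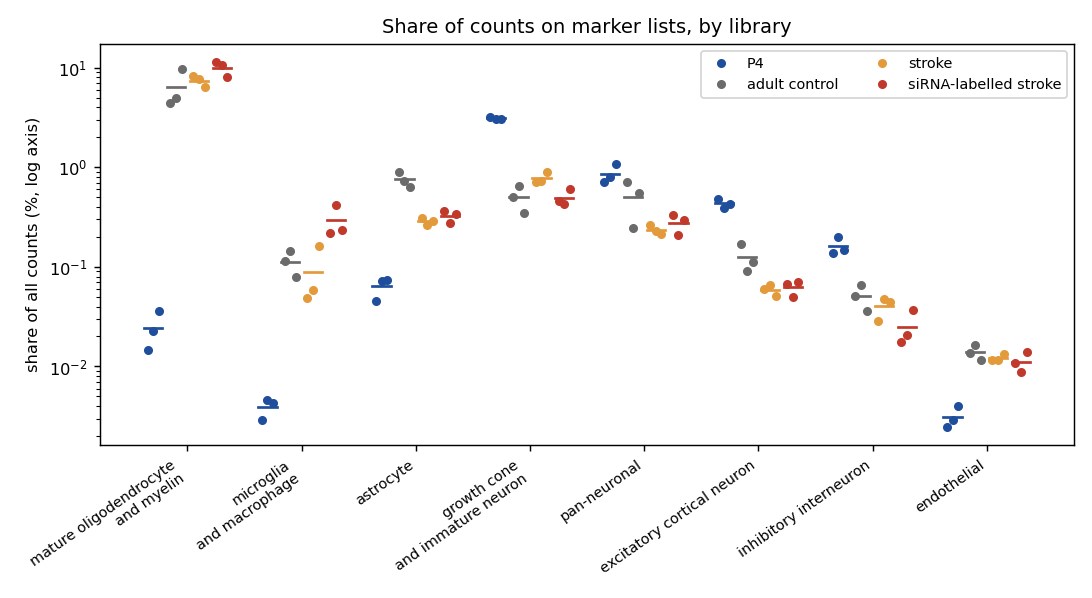
Share of all counts on 8 marker lists in each of the 12 libraries, in percent on a log axis; points are libraries and bars are means. All P4 libraries lie on one side of all 9 adult libraries on each list shown, most narrowly for pan-neuronal markers, with myelin at 0.0244 ± 0.0107% in P4 and 9.97 ± 1.75% in siRNA-labelled stroke.

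Differences of siRNA-labelled stroke from the other adult groups were tested directly. Against stroke 1 gene of 17909 (0.00558%) was called, with 1319 at an unadjusted p under 0.05. That gene was Gng4, a G protein gamma subunit (chromosome 13, 13784059 to 13827895). It was at 23.7, 17.4 and 28 CPM in siRNA-labelled stroke, 58.1, 79.7 and 77 CPM in P4, 144, 137 and 219 CPM in stroke and 16.4, 13 and 20.3 CPM in adult control. The siRNA-labelled libraries were below all P4 and all stroke libraries. Stroke and P4 libraries are both numbered 4 to 6, and siRNA-labelled and adult control libraries, where Gng4 was lower, 1 to 3. A batch that followed these numbers thus cannot be told apart from this difference between siRNA-labelled stroke and stroke. Against P4 the log2 fold change was -1.64 (SE 0.35, adjusted p = 0.00348) and against stroke -2.85 (SE 0.37, adjusted p = 0.023). The call against stroke was lost when any 1 siRNA-labelled or stroke library was left out, with adjusted p-values from 0.0572 to 0.373, whereas DESeq2 made 195 calls against stroke.

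Against adult control 21 genes (0.117%) were called, 15 higher and 6 lower, with 1497 at an unadjusted p under 0.05. Of these 21, 15 were also called against P4 in the same direction, 2 in the opposite direction and 4 were not called against P4. Among those higher, Ifit1 and Oasl2 are interferon-stimulated, B2m, H2-K1, H2-D1 and C4b belong to antigen presentation and complement, and Spp1 and Gpnmb to activated phagocytes. Leaving out 1 siRNA-labelled or adult control library left 5 to 25 calls, and Ifit1, Oasl2, C4b and Serpina3n were the 4 of the 21 called each time. These 4 had higher means in stroke, at 302, 263, 805 and 2882 CPM, than in siRNA-labelled stroke, at 140, 99, 433 and 528 CPM. B2m, H2-K1, H2-D1, Spp1 and Gpnmb had lower means in stroke than in siRNA-labelled stroke. The 1 gene called against stroke, Gng4, was not among the 21. DESeq2 made 381 calls. Ifit1 was 7.69 above adult control on the log2 scale (SE 0.72, adjusted p = 0.000474), where its level was 0.793, 0.969 and 0 CPM. Serpina3n was at 18.9, 23.9 and 3.54 CPM in adult control and C4b at 5.83, 12.9 and 8.44 CPM, with log2 differences of 5.08 and 5.57. Gpnmb, a glycoprotein of lipid-laden phagocytes, was at 86, 409 and 169 CPM in siRNA-labelled stroke, 0.262, 0.258 and 2.41 CPM in P4 and 1.31, 3.9 and 0.456 CPM in adult control. That call was lost without some libraries (adjusted p up to 0.155). The macrophage pore protein Mpeg1 was at 512 ± 334 CPM, against 21.2 ± 1.03 in P4 and 49.5 ± 30.7 in adult control. The mechanosensitive channel Piezo2 was at 32.4, 18.7 and 32.1 CPM, against 1.7, 1.59 and 1.9 in P4 and 4.6, 2.36 and 1.03 in adult control, with no overlap. In stroke Piezo2 was higher still, at 62.5, 62 and 51 CPM. Mpeg1 and Piezo2 were lost against adult control in 5 and 4 of the 6 fits that left out 1 library.

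The astrocytic glutamate transporter Slc1a2 and the sphingosine receptor S1pr1 were the 2 genes with opposite calls. Slc1a2 was at 1330.4, 709.9 and 805 CPM in siRNA-labelled stroke, above P4 at 223, 424 and 325 CPM and below adult control at 4766, 3131 and 4491 CPM. Its log2 fold change was 1.55 against P4 (adjusted p = 0.00508) and -2.12 against adult control (adjusted p = 0.0389). S1pr1 was at 17, 7.18 and 17.3 CPM, between 3.59, 4.1 and 2.73 CPM in P4 and 73, 75.4 and 101 CPM in adult control. Leaving out 1 library ended the call against adult control in 4 of 6 fits for Slc1a2 (adjusted p up to 0.269) and in 6 of 6 for S1pr1 (up to 0.296), and against P4 in none. Called against adult control and not against P4 were the folate enzyme Aldh1l2, the bicarbonate transporter Slc4a4, the kinesin Kif5a and the exchange factor Rapgef4, each lost in 4 or 5 of the 6 fits. Aldh1l2 was at 82.2, 117 and 103 CPM in siRNA-labelled stroke and 106, 74.8 and 68.5 CPM in P4, which overlap, and at 14, 32.1 and 27.3 CPM in adult control. Kif5c, lower than both, was at 518, 514 and 366 CPM in adult control.

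**Figure D4:**
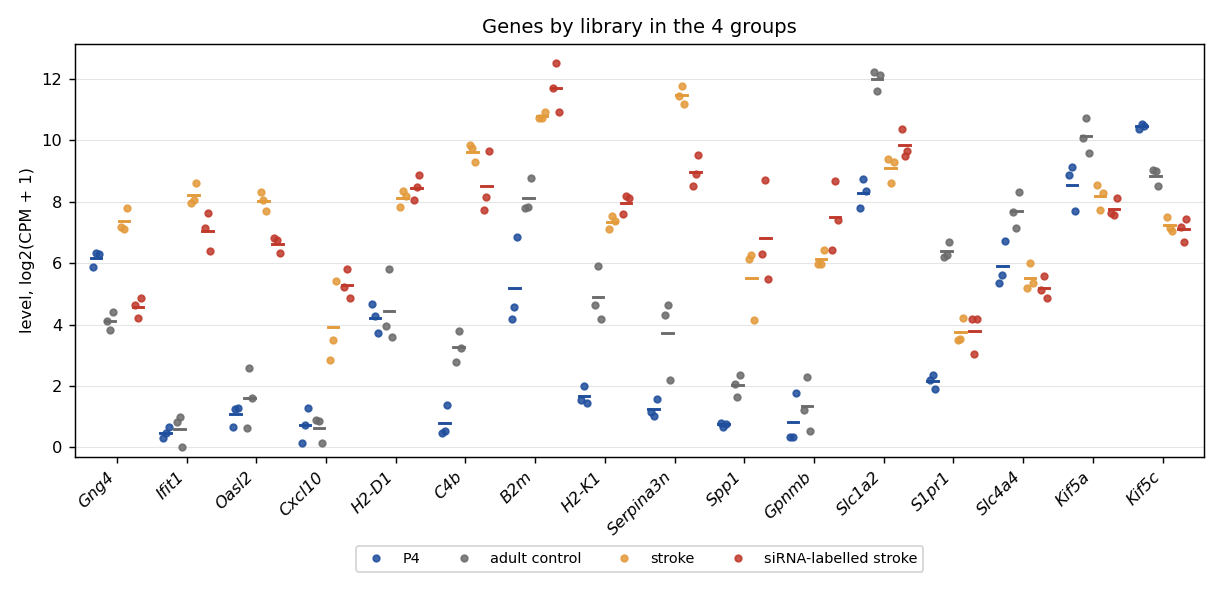
Level of 16 genes in each of the 12 libraries as log2(CPM + 1); points are libraries and bars are means of 3. From Ifit1 to Gpnmb the siRNA-labelled and the stroke libraries are above P4 and adult control. In siRNA-labelled stroke Slc1a2 and S1pr1 lie between P4 and adult control, and Gng4 is lower than in stroke and P4.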

How the data were processed

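The authors deposited one table of raw read counts per gene for 12 libraries, 3 in each of 4 groups, with log2 fold changes, p-values and false discovery rates of their own comparisons, per the file headers. Per the submitters' processing notes, CASAVA 1.8.2, edgeR and build mm10 are named, with no role given. No source used here names the aligner, the annotation or the strand setting. A further 30 columns of per-sample values were not used.

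Groups came from the labels. Counts of all 12 libraries were fitted in R 4.3.3 with edgeR 4.0.16: filterByExpr by group, TMM factors, 1 mean per group, quasi-likelihood F tests and Benjamini-Hochberg adjustment over the 17909 genes kept, with 0.05 as the threshold. The SE is the log2 fold change divided by the root of F. Alternatives were other scalings, no filter, DESeq2 1.42.0, the 6 libraries alone, glmTreat, gene classes removed and each library left out. With 3 libraries a group, siRNA-labelled stroke against P4 was simulated for 17358 genes. The test recovered 1 of 50 genes changed by a log2 of 1, 10 of 50 at 2, 26 of 50 at 3 and 41 of 50 at 5. There were 3 false calls among the 17158 left unchanged. Far fewer genes were changed than the 3517 called in the data. The Benjamini-Hochberg cutoff depends on that number, so these counts do not give the recovery in the data.

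The genes named are Gdf10, the 10 largest changes each way of those called, with 5 CPM or more on average in the group where the gene is higher, reads in each of that group's libraries and no overlap, predicted genes left out, the 8 with the highest CPM each way, the 3 smallest p-values of each list and the genes called against stroke or adult control. Some genes that this rule names are not reported here. Further list members illustrate lists and were picked after values were seen. The members and the 43 lists were chosen with earlier results of these data known. Of 840 list entries 796 were tested, 29 had low counts and 15 were not matched in the table. A list is described by its counts and median, with no set test. Promoter windows are from RefSeq on GRCm38.p6. The replicate numbers of both groups share none, so no pairing was fitted.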

Additional observations from a re-analysis of the deposited data

Results flagged for a closer look

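Differences of siRNA-labelled stroke from stroke or from adult control test, gene by gene, whether the distance to P4 differs between these groups, since P4 drops out. Against stroke, Gng4 passed this test of the difference, with a log2 fold change of -2.85 (adjusted p = 0.023), while its differences from P4 were -1.64 in siRNA-labelled stroke and 1.22 in stroke. Without 1 of the siRNA-labelled or stroke libraries it did not pass. A batch that followed the replicate numbers, 1 to 3 in siRNA-labelled stroke and 4 to 6 in stroke, cannot be told apart from this difference.

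Against adult control, 21 genes passed. The interferon-stimulated genes had log2 fold changes of 7.69 (Ifit1), 5.25 (Oasl2) and 5.95 (Cxcl10). Genes of antigen presentation and complement had 3.65 (B2m), 3.74 (H2-D1), 2.94 (H2-K1) and 5.57 (C4b). Genes of macrophages had 6.79 (Gpnmb), 5.86 (Spp1) and 3.37 (Mpeg1). The others higher were 5.08 (Serpina3n), 3.36 (Piezo2), 2.09 (Zfp36) and 2.04 (Aldh1l2). Those lower were -2.59 (Slc4a4), -2.59 (S1pr1), -2.12 (Slc1a2), -2.42 (Kif5a), -2.23 (Rapgef4) and -1.74 (Kif5c). With 1 library left out at a time, Ifit1, Oasl2, C4b and Serpina3n passed in 6 of 6 fits, Spp1 in 5 and Gpnmb in 4, and the other 15 were lost in 3 to 6 fits. Ifit1, Oasl2, C4b and Serpina3n had higher mean levels in stroke than in siRNA-labelled stroke, while Spp1 and Gpnmb had lower ones.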

How the results depend on the processing

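No paired analysis was possible because the siRNA-labelled libraries are numbered 1 to 3 and the P4 libraries 4 to 6, so they share no number. With RLE factors, upper quartile factors, no factors and no filter, 3322 to 3475 genes were called, against 3517. DESeq2 called 4879, of which 2210 were lower, a count over 1.5 times the 1441 of edgeR. The 6 libraries alone gave 4250. Against a log2 fold change of 1, glmTreat called 2075, 1367 higher and 708 lower. Leaving out 1 library gave 2418 to 3196 calls, 1421 to 1914 higher and 897 to 1282 lower. No factors and RLE left 56.5% and 56.9% of calls in the higher direction, against 59.0%. Without P4 library 6 the median of all genes was 0.22. Of 123 named genes that were called, 113 were called in each of up to 12 alternatives, and 0 of 145 changed direction. Of 330 called list genes, 249 were called in each of 14 alternatives and 0 changed direction. The medians of 7 of 43 lists changed sign in some alternative and 0 under another scaling. For 1 library left out, the comparison with stroke gave 0 calls and that with adult control 5 to 25, alternatives chosen after seeing the data. DESeq2 called 195 and 381 in those comparisons. Depth limits genes at a few reads, such as Gdf10 in siRNA-labelled stroke. The causes of these changes were not tested.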

Other observations

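Several lists had values that belong to no comparison above. Of 6 tested markers of ependyma and choroid plexus, 1 was called, 16.7% beside 19.6% of all genes tested. It was the cilium factor Foxj1 (log2 fold change 4.17, adjusted p = 0.0378), and it was lost in 5 of 12 alternatives. Transthyretin (Ttr), the main product of choroid plexus, was at 0.557, 2.61 and 0 CPM in siRNA-labelled stroke and 0, 0.0991 and 0.317 CPM in P4. Of 6 sex-linked genes Xist was the 1 called, and the Y-linked Ddx3y was at 252, 329 and 126 CPM against 0.0562, 33.5 and 148 CPM. The nuclear RNA Malat1 was at 19699.7, 19501 and 8660.4 CPM against 6776, 5638 and 9697 CPM and did not pass (adjusted p = 0.0868), nor did the ribosomal RNA precursor Rn45s (log2 fold change 2.84, SE 1.10).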
